A study of Homo sapiens with 42 samples.

Results

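The 9 genes described here, DDX58, IFIH1, TMEM173, IRF3, IRF7, STAT2, IRF9, IRF1 and IRF8, encode sensors of foreign RNA and DNA and regulators of the interferon response. They were taken by gene symbol from the 58869 genes of a table of raw read counts, which holds all 9. The RNA came from 2 human acute myeloid leukaemia cell lines: OCI-AML3, which is NPM1c+ (mutant NPM1), and NOMO1, which is KMT2A-r (KMT2A-rearranged). Each line had 7 groups of 3 libraries, 42 libraries in all: both drugs combined (day 3 and day 6), VTP-50469 alone, a menin inhibitor (day 3 and day 6), selumetinib alone, a MEK inhibitor, and the vehicle DMSO (day 3 and day 6). Each drug was used at 100 nM. The study set out to learn how the 2 drugs act together, so each drug and the combination were set against DMSO and the combination against VTP-50469 alone. Selumetinib alone is described as 1 day of treatment but carries day 3 in the titles of replicates 2 and 3, so its time is uncertain, and it was compared with DMSO day 3. For the combination, the time on selumetinib is not stated. Each genotype is represented by 1 line, so genotype and line cannot be told apart. Whether replicate libraries stem from separate cultures is not stated either, so p-values measure only the spread between these libraries, which may be technical.

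Cells detect viral or misplaced nucleic acid with receptors in the cytosol. RIG-I, encoded by DDX58, and MDA5, encoded by IFIH1, bind double-stranded RNA and signal through the mitochondrial adaptor MAVS, while STING, encoded by TMEM173, relays the signal of the DNA sensor cGAS. Both routes activate the transcription factors IRF3 and IRF7, which switch on the genes of type I interferons. Secreted interferon acts through its receptor and JAK kinases on STAT2, which joins IRF9 in the complex ISGF3 and binds interferon-stimulated response elements (ISREs). IRF1 is a transcription factor induced by interferons, and IRF8 is a factor of the monocyte, dendritic cell and B cell lineages. Several of these genes, among them DDX58, IFIH1, IRF7, STAT2 and IRF9, are themselves induced by interferon. VTP-50469 blocks menin, a protein that tethers KMT2A to chromatin, and selumetinib blocks MEK, the kinase upstream of ERK.

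OCI-AML3 libraries held between 15561248 and 24262960 counts, and NOMO1 libraries between 15264862 and 29168628. Levels are given in CPM, read counts relative to library totals scaled by the TMM method. A gene is called higher or lower where its adjusted p is under 0.05 by edgeR's quasi-likelihood test with Benjamini-Hochberg adjustment over all genes of a fit. Changes are log2 fold changes ± SE with n = 3 per group. Of 10 markers of myeloid identity, 8 in OCI-AML3 and 10 in NOMO1 reached 5 CPM in at least 1 group, against 0 and 3 of 10 markers of T and NK cells, 2 and 3 of 8 of plasmacytoid dendritic cells, 1 and 3 of 8 of B cells, 1 and 1 of 12 of erythroid cells, and 2 and 5 of 10 of epithelial and stromal cells. In bulk RNA, fewer cells of a type and less RNA per cell cannot be told apart. Several libraries stood apart. In NOMO1 DMSO day 3, 17.6% to 17.97% of counts were mitochondrial, against 2.73% to 3.68% in NOMO1 DMSO day 6, and DMSO day 6 against DMSO day 3 called 8447 genes in NOMO1 but 0 in OCI-AML3 by edgeR (174 at an unadjusted p under 0.05, and 1 by DESeq2). NOMO1 results at day 3 and under selumetinib are therefore also given against DMSO day 6 where the call or the direction changed. OCI-AML3 VTP-50469 day 3 replicate 2 and NOMO1 VTP-50469 day 3 replicate 1 differed from the other libraries of their groups. The mitochondrial share was also higher in the OCI-AML3 combination at day 6 (10.8% to 14.9%) than in VTP-50469 (4.06% to 5.09%) and DMSO (2.48% to 3.71%) of that day; its part in the results was not tested.

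In OCI-AML3 most of the 9 genes were higher with VTP-50469 and with the combination than with DMSO, and IRF8 was called lower in each of these comparisons. At day 3 of VTP-50469, 5 of the 9 were called higher and 1 lower, against 6.49% and 4.42% of the 16384 genes tested. At day 6, 7 of 9 were called higher and 1 lower (all genes 18.8% and 16%), with a median log2 fold change of 1.496 over the 9 genes and 0.0051 over all genes. IRF3 was the 1 gene of the 9 not called at that time. The combination against DMSO gave 6 higher and 2 lower at day 3 (all genes 22.3% and 25.8%) and 7 higher and 1 lower at day 6 (all genes 23.1% and 26.5%). Selumetinib against DMSO day 3 gave 3 higher and 1 lower (all genes 11.7% and 15.6%). These comparisons share their DMSO groups and are not independent. When the combination was set against VTP-50469, 3 of 9 were called higher and 0 lower at day 3 (all genes 18.2% and 24%), and 2 higher and 3 lower at day 6 (all genes 16.7% and 24.6%). VTP-50469 day 6 against VTP-50469 day 3 gave 5 higher and 1 lower (all genes 9.8% and 8.65%). DMSO day 6 against DMSO day 3 called 0 of 9 in either direction (all genes 0%). The interaction at day 3, which asks whether the combination departs from the sum of both single drugs on the log2 scale, called 0 of 9 in OCI-AML3 (all genes 8.94%) by edgeR and 1, IRF1, by DESeq2. It cannot tell a joint effect of the drugs from a difference in time on selumetinib, which is uncertain.

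In NOMO1 fewer of the 9 genes were called higher at day 6 of VTP-50469, and calls went in both directions. VTP-50469 gave 1 of 9 called higher and 3 lower at day 3 (of 16561 genes tested, 29.7% and 22.7%), and 2 higher and 2 lower at day 6 (all genes 23.7% and 25.1%). At day 6 the median log2 fold change was -0.0012 over the 9 genes and -0.010 over all genes. The combination against DMSO gave 4 higher and 2 lower at day 3 (all genes 31.1% and 27.5%) and 5 higher and 1 lower at day 6 (all genes 27.3% and 28.2%). Selumetinib gave 4 higher and 2 lower (all genes 28.9% and 25.2%). In these comparisons with DMSO more of all genes were called than in OCI-AML3, so a count of 4 to 6 among 9 lies closer to the background. Against VTP-50469, the combination gave 5 higher and 1 lower at day 3 (all genes 15.9% and 19.2%) and 5 higher and 1 lower at day 6 (all genes 12.4% and 15.2%). Here fewer of all genes were called than in OCI-AML3 (18.2% and 24% at day 3, 16.7% and 24.6% at day 6). VTP-50469 day 6 against day 3 gave 4 higher and 0 lower (all genes 20.8% and 21.3%), and DMSO day 6 against DMSO day 3 gave 3 higher and 4 lower (all genes 28.8% and 22.3%). The interaction at day 3 called 2 of 9, IRF3 and STAT2, both positive (all genes 37% in either direction). DESeq2, relative log expression size factors and a filter of 1 CPM each called 4, adding IRF1 and TMEM173. With DMSO day 6 as the control the calls differed. VTP-50469 at day 3 then gave 2 higher and 3 lower (all genes 27.2% in either direction), selumetinib 3 higher and 1 lower (32.2%), and the combination at day 3 4 higher and 1 lower (45.3%). The interaction then called 3, all positive (13.9%): STAT2, IRF8 (0.83, edgeR adjusted p = 1.32e-06, against 0.14 ± 0.10 with DMSO day 3) and IFIH1 (0.59, edgeR adjusted p = 0.0202, against 0.12 ± 0.17), while IRF3 was not called.

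**Figure D1:**
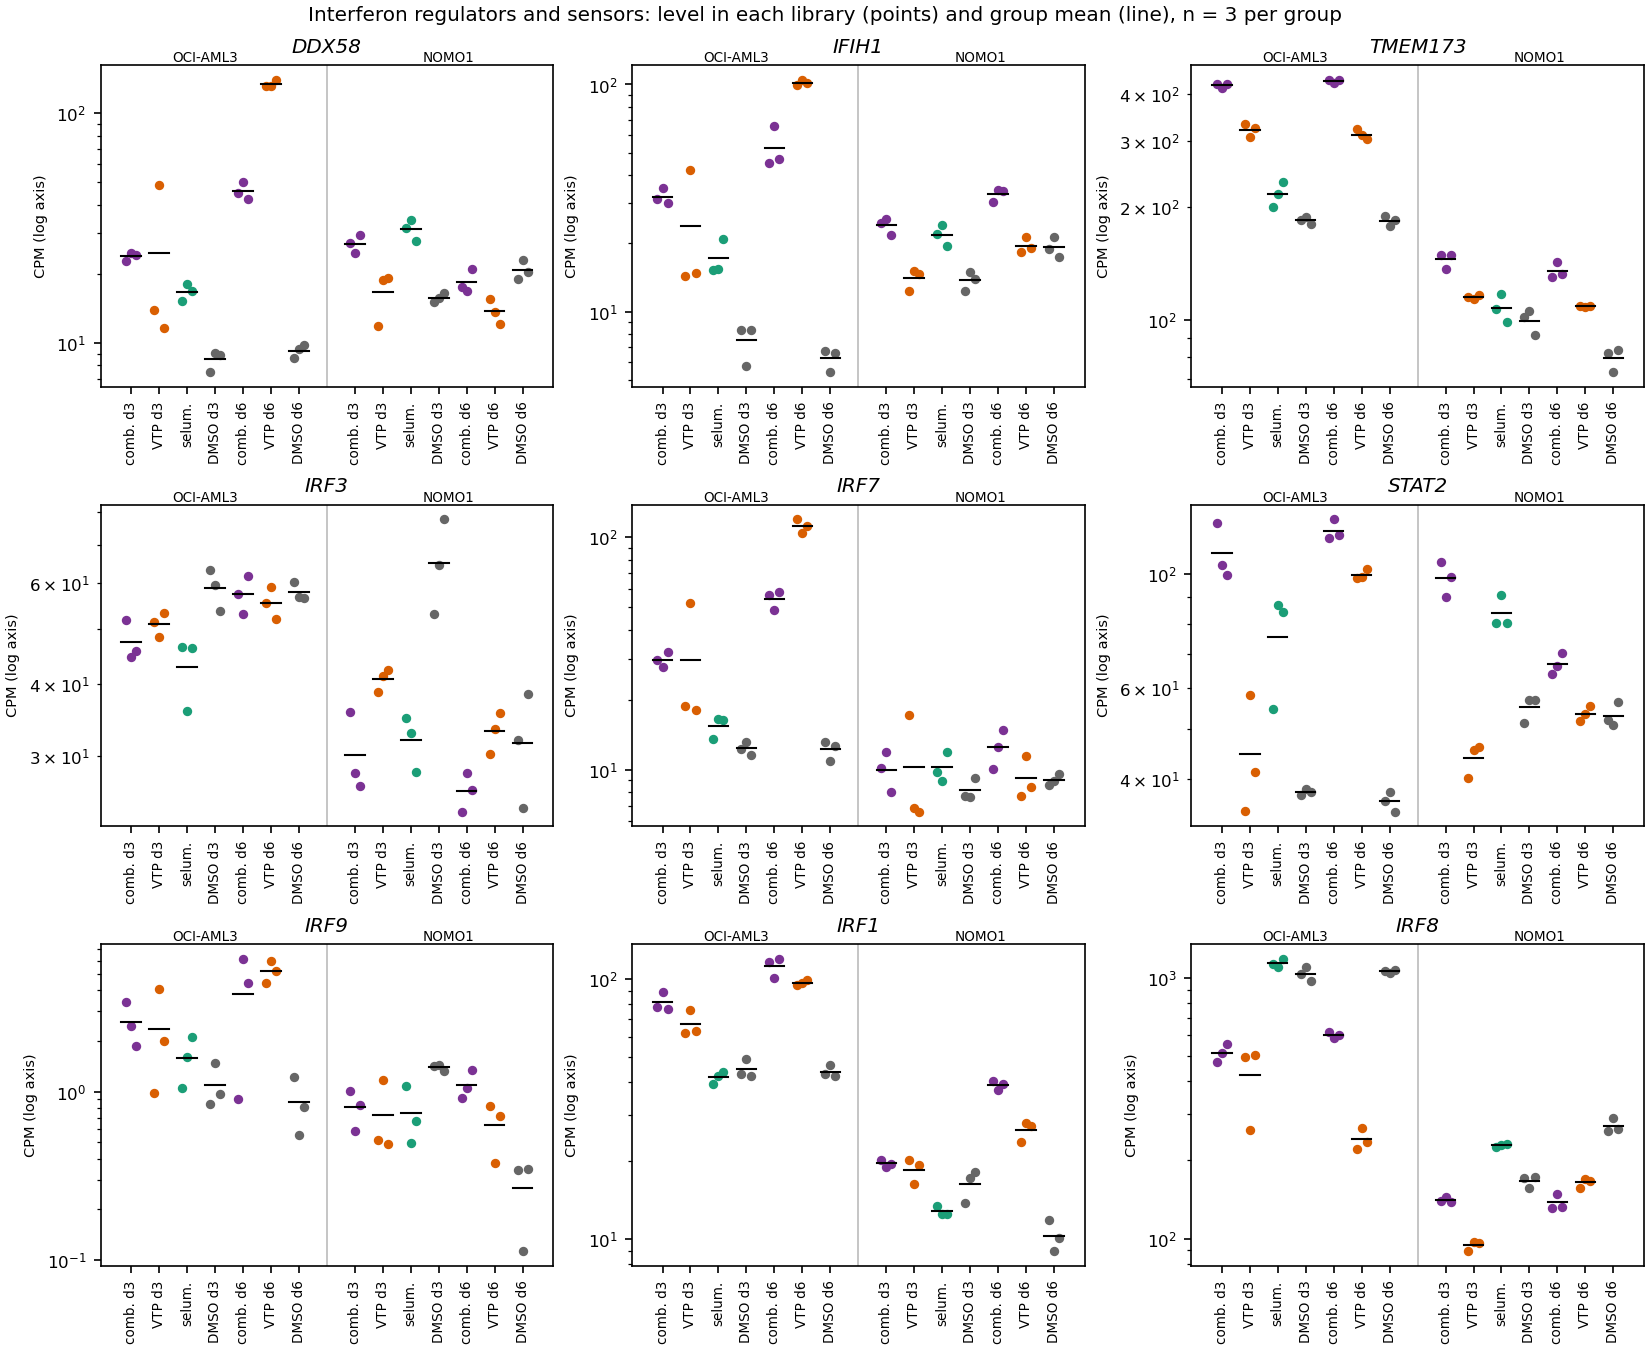
Level of each of the 9 genes in CPM (log axis) in all 42 libraries, OCI-AML3 left and NOMO1 right in each panel. Points are libraries and lines are means of 3; in OCI-AML3, DDX58, IFIH1 and IRF7 are highest in the VTP-50469 day 6 libraries, while IRF8 is lower there than in DMSO.

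DDX58 (chr9:32455705-32526324, minus strand, GRCh38, GENCODE 29) and IFIH1 (chr2:162267079-162318703, minus strand) encode the RNA sensors RIG-I and MDA5. In OCI-AML3 both were over 10 times as high at day 6 of VTP-50469 as in DMSO, and both were lower in the combination than in VTP-50469 alone. In NOMO1 neither was called higher with VTP-50469, and the combination was higher than VTP-50469 alone. The 300 bases around each transcription start, from RefSeq on GRCh38.p14, are shown for these sensors because they moved together in OCI-AML3 and ISREs are the sites of ISGF3 and the IRFs. Capitals mark the ISRE core (GAAA, any 2 bases, GAAA), searched on both strands. The window runs from 250 bases before the start to 50 after it, at chr2:162318635-162318934 for IFIH1 and chr9:32526147-32526446 for DDX58 (RIGI in RefSeq), both on the minus strand and written 5′ to 3′ along the gene.
IFIH1: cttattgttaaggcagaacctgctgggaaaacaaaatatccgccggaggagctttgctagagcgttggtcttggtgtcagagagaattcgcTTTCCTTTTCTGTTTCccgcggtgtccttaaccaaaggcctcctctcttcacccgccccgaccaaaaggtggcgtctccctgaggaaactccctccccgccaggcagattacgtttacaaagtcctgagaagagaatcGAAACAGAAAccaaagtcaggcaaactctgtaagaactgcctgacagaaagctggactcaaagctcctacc
DDX58: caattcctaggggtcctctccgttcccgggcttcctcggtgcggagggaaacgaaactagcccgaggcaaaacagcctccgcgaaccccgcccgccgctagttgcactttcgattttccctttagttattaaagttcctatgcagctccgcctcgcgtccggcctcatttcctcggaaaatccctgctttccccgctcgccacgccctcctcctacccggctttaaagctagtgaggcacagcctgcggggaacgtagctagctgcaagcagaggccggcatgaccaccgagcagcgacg
IFIH1 has 3 matches, which begin 159, 153 and 21 bases before the start, the first 2 overlapping. DDX58 has none in its window, nor have IRF1, IRF9 and STAT2. The DDX58 letters do hold GAAACGAAA, with 1 base between, a form that was not searched. The windows of IRF8, at chr16:85902580-85902879 and chr16:85902765-85903064, hold none either. They lie inside that gene and not at its 5′ end (85898803 in GENCODE 29), where no window was searched. Of 35116 promoter windows in the table, 3.57% hold at least 1 match. A match is a description of the letters only.

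In OCI-AML3 at day 6, DDX58 stood at 45.1, 50.2 and 42.4 CPM in the combination libraries, 132, 131 and 139.8 CPM in the VTP-50469 libraries and 8.60, 9.41 and 9.81 CPM in the DMSO libraries. The 3 groups did not overlap, with VTP-50469 highest. The log2 fold change was 3.89 ± 0.40 for VTP-50469 against DMSO (edgeR adjusted p = 1.91e-06) and 2.32 ± 0.39 for the combination (edgeR adjusted p = 0.000151). The combination was lower than VTP-50469 by a log2 fold change of -1.57 ± 0.36 (edgeR adjusted p = 0.00235). The difference was thus called in both directions, up from DMSO and down from the single drug. At day 3 DDX58 had 22.7, 24.6 and 24.3 CPM in the combination, 13.997, 48.7 and 11.7 CPM in VTP-50469, 15.2, 18.2 and 16.9 CPM in selumetinib and 7.48, 9.09 and 8.92 CPM in DMSO. All treated libraries were above the DMSO libraries, but VTP-50469 replicate 2 was more than 3 times as high as replicates 1 and 3. The VTP-50469 change of 1.56 ± 0.39 (edgeR adjusted p = 0.0183) became 0.60 without that replicate (edgeR adjusted p = 0.00163), and the call was lost without any 1 DMSO replicate (edgeR adjusted p = 0.0563 to 0.0807). The combination differed from VTP-50469 by -0.094 ± 0.37 at day 3, which was not called, but by 0.87 without replicate 2 (edgeR adjusted p = 3.74e-07). Selumetinib gave 0.97 ± 0.40, which edgeR did not call (adjusted p = 0.0894) and DESeq2 did (adjusted p = 0.0329).

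IFIH1 followed the same order in OCI-AML3 at day 6, with 45.1, 65.9 and 46.95 CPM in the combination, 99.3, 105 and 102 CPM in VTP-50469 and 6.76, 5.44 and 6.62 CPM in DMSO. The groups did not overlap. VTP-50469 against DMSO gave 4.06 ± 0.37 (edgeR adjusted p = 3.64e-07), and the combination gave 3.08 ± 0.36 (edgeR adjusted p = 3.1e-06). The combination against VTP-50469 gave -0.97 ± 0.31 (edgeR adjusted p = 0.0193), a call that was lost without combination replicate 1 or replicate 3 (edgeR adjusted p = 0.0649 and 0.0616). At day 3 the values were 31.3, 35.2 and 29.998 CPM in the combination, 14.4, 42.04 and 14.8 CPM in VTP-50469, 15.4, 15.4 and 20.9 CPM in selumetinib and 8.37, 5.798 and 8.34 CPM in DMSO. Every treated library was above every DMSO library, and VTP-50469 replicate 2 again stood apart from the others of its group. IFIH1 was the 1 RNA sensor of the pair called higher with selumetinib alone in OCI-AML3, at 1.21 ± 0.35 (edgeR adjusted p = 0.0181), which lost its call without selumetinib replicate 3 (0.0791) or DMSO day 3 replicate 2 (0.0822); the difference from DDX58 was not tested. The VTP-50469 change at day 3 was 1.68 ± 0.35, and 0.97 without replicate 2, called in both cases, but the call was lost with only the compared groups in the fit (edgeR adjusted p = 0.162), as were those of DDX58 (0.269) and IRF7 (0.234). Without that replicate the combination was also above VTP-50469 at day 3, by 1.11 (edgeR adjusted p = 8.88e-07), against 0.40 ± 0.32 with it.

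In NOMO1 at day 6, DDX58 had 17.5, 16.9 and 20.9 CPM in the combination, 15.6, 13.6 and 12.1 CPM in VTP-50469 and 18.9, 23.1 and 20.5 CPM in DMSO. VTP-50469 lay below DMSO without overlap, at -0.62 ± 0.15 (edgeR adjusted p = 0.000844), while the combination overlapped DMSO (-0.22 ± 0.15, not called). The combination exceeded VTP-50469 by 0.40 ± 0.15 (edgeR adjusted p = 0.0432), a call lost without combination replicate 1 or 3, without VTP-50469 replicate 2 or 3, and with the replicate number as a block (edgeR adjusted p = 0.0515). IFIH1 had 30.5, 34.3 and 34.2 CPM in the combination, 18.4, 21.3 and 19.1 CPM in VTP-50469 and 18.9, 21.3 and 17.4 CPM in DMSO. The combination was above both other groups, by 0.74 ± 0.12 against DMSO (edgeR adjusted p = 5.72e-06) and 0.74 ± 0.12 against VTP-50469 (edgeR adjusted p = 2.73e-05), and VTP-50469 overlapped DMSO. Selumetinib raised both sensors against DMSO day 3. DDX58 had 31.8, 34.2 and 27.9 CPM with selumetinib and 15.05, 15.7 and 16.5 CPM in DMSO day 3, a change of 0.94 ± 0.15 (edgeR adjusted p = 4.4e-06) that was 0.55 against DMSO day 6 (edgeR adjusted p = 0.00409). IFIH1 had 22.1, 24.1 and 19.4 CPM and 12.4, 14.9 and 13.9 CPM in the same groups, a change of 0.61 ± 0.12 (edgeR adjusted p = 0.000133) that was 0.15 and not called against DMSO day 6 (edgeR adjusted p = 0.39). The day 3 combination was called above DMSO day 3 for both, at 0.72 ± 0.15 for DDX58 and 0.74 ± 0.12 for IFIH1. Neither was called against DMSO day 6, at 0.33 and 0.27. Against VTP-50469 day 3, a comparison with no DMSO group in it, the combination was higher for DDX58 by 0.66 ± 0.15 (edgeR adjusted p = 0.00066) and for IFIH1 by 0.74 ± 0.12 (edgeR adjusted p = 2.51e-05). VTP-50469 alone at day 3 gave 0.054 ± 0.15 for DDX58 and 0.0029 ± 0.13 for IFIH1, neither called, but IFIH1 was lower by -0.46 against DMSO day 6 (edgeR adjusted p = 0.00499).

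TMEM173 (chr5:139475534-139482935, minus strand) encodes STING, the adaptor of cytosolic DNA sensing. It was higher in every comparison of a drug with DMSO in OCI-AML3, and the combination was above VTP-50469 at both times in both lines. In OCI-AML3 at day 6 it had 437, 428 and 436 CPM in the combination, 322, 311 and 303 CPM in VTP-50469 and 189, 178 and 184.9 CPM in DMSO. At day 3 it had 425, 415 and 425 CPM in the combination, 333, 308 and 324 CPM in VTP-50469, 200.1, 216 and 234 CPM in selumetinib and 185.4, 188 and 180.2 CPM in DMSO. At each time the combination was highest and DMSO lowest, with no overlap. VTP-50469 changed it by 0.81 ± 0.061 at day 3 and 0.80 ± 0.061 at day 6, and day 6 against day 3 of VTP-50469 was not called (-0.013 ± 0.061, edgeR adjusted p = 0.928). DDX58 gave 2.46 ± 0.37 and IFIH1 2.12 ± 0.32 there, both called, but not with only the compared groups in the fit (edgeR adjusted p = 0.0887 and 0.0705), and 3.42 and 2.84, both called, without VTP-50469 day 3 replicate 2. The combination changed it by 1.17 ± 0.062 at day 3 and 1.25 ± 0.062 at day 6, which was 0.36 ± 0.061 and 0.45 ± 0.061 above VTP-50469 (edgeR adjusted p = 1.4e-05 and 5.94e-07). Selumetinib gave 0.23 ± 0.061 (edgeR adjusted p = 0.00505), which was 0.17 and not called without selumetinib replicate 3 (edgeR adjusted p = 0.0625).

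In NOMO1 TMEM173 had 130.4, 143 and 133 CPM in the combination at day 6, 109, 108 and 109 CPM in VTP-50469 and 81.6, 72.8 and 83.3 CPM in DMSO, again in that order without overlap. VTP-50469 gave 0.43 ± 0.075 (edgeR adjusted p = 2.39e-05) and the combination 0.73 ± 0.075 (edgeR adjusted p = 2.81e-09). The combination exceeded VTP-50469 by 0.30 ± 0.074 at day 3 and 0.30 ± 0.074 at day 6 (edgeR adjusted p = 0.00244 and 0.00292). At day 3 the VTP-50469 change of 0.18 ± 0.075 (edgeR adjusted p = 0.0472) was near the threshold: it was lost under DESeq2, under other scalings and filters, with the replicate block (0.0547) and without each of 5 of the 6 libraries in turn, but was 0.53 against DMSO day 6 (edgeR adjusted p = 5.13e-06). The combination at day 3 gave 0.47 ± 0.075 against DMSO day 3 and 0.82 against DMSO day 6, both called. Selumetinib gave 0.058 ± 0.075 against DMSO day 3, not called, and 0.41 against DMSO day 6 (edgeR adjusted p = 0.00013). CGAS encodes cGAS, the DNA sensor whose product activates STING. In OCI-AML3 CGAS had 37.04 ± 4.83 CPM in the combination at day 6, 39.8 ± 4.41 CPM in VTP-50469 and 52.02 ± 2.26 CPM in DMSO. In NOMO1 it had 33.2 ± 0.915 CPM, 33.9 ± 1.601 CPM and 44.7 ± 6.82 CPM in the same groups (mean ± SD, n = 3). The log2 fold change of CGAS with VTP-50469 at day 6 was -0.35 ± 0.10 in OCI-AML3 (edgeR adjusted p = 0.00719) and -0.43 ± 0.10 in NOMO1 (edgeR adjusted p = 0.00113).

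IRF3 (chr19:49659569-49665875, minus strand) and IRF7 (chr11:612553-615999, minus strand) encode the transcription factors that the sensors activate. IRF3 is known as constitutive and controlled by phosphorylation, and IRF7 as interferon-induced. In OCI-AML3 IRF7 moved as DDX58 and IFIH1 did, while IRF3 was not called at day 6. IRF7 at day 6 had 56.3, 48.5 and 57.96 CPM in the combination, 119, 104 and 111 CPM in VTP-50469 and 13.2, 10.9 and 12.6 CPM in DMSO. The groups did not overlap, and VTP-50469 was highest. Changes were 3.23 ± 0.31 for VTP-50469 against DMSO (edgeR adjusted p = 7.52e-07), 2.17 ± 0.31 for the combination (edgeR adjusted p = 2.42e-05) and -1.06 ± 0.28 for the combination against VTP-50469 (edgeR adjusted p = 0.00682). At day 3 IRF7 had 29.6, 27.6 and 32.05 CPM in the combination, 18.8, 52.3 and 18.1 CPM in VTP-50469, 13.5, 16.5 and 16.4 CPM in selumetinib and 12.3, 13.2 and 11.6 CPM in DMSO. VTP-50469 replicate 2 was again the high one. The VTP-50469 change was 1.28 ± 0.31 (edgeR adjusted p = 0.0124), 0.58 without that replicate and still called, and not called without DMSO replicate 3 (edgeR adjusted p = 0.0547). The combination gave 1.24 ± 0.31 against DMSO (edgeR adjusted p = 0.00317). Against VTP-50469 at day 3 it gave -0.037 ± 0.29, not called, and 0.67 without replicate 2 (edgeR adjusted p = 2.28e-05). Selumetinib gave 0.32 ± 0.31, not called.

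In NOMO1 IRF7 was low in every group and was called in none of the 5 comparisons with DMSO. Its group means at day 6 were 12.5 ± 2.41 CPM in the combination, 9.17 ± 1.98 CPM in VTP-50469 and 9.04 ± 0.467 CPM in DMSO (SD, n = 3). VTP-50469 at day 3 had 17.3, 6.85 and 6.598 CPM, with replicate 1 above the others, and without that replicate the combination exceeded VTP-50469 by 0.54 (edgeR adjusted p = 0.0385), against -0.060 ± 0.27 with it. IRF3 in OCI-AML3 had 57.5, 52.96 and 61.9 CPM in the combination at day 6, 55.5, 59.1 and 51.99 CPM in VTP-50469 and 60.3, 56.9 and 56.7 CPM in DMSO. These groups overlapped, with changes of -0.025 ± 0.094 for VTP-50469 and 0.0031 ± 0.095 for the combination. IRF3 was lower in OCI-AML3 with selumetinib, at 46.5, 35.9 and 46.2 CPM against 63.2, 59.5 and 53.8 CPM in DMSO day 3 (-0.46 ± 0.095, edgeR adjusted p = 0.000402), and in the day 3 combination (-0.34 ± 0.094, edgeR adjusted p = 0.00354). In NOMO1 IRF3 had 34.8, 32.9 and 28.1 CPM with selumetinib, 53.1, 64.6 and 77.6 CPM in DMSO day 3 and 31.9, 24.3 and 38.5 CPM in DMSO day 6. The DMSO day 3 libraries were the highest of the line, and the falls at day 3 (-1.18 ± 0.15 for the combination, -0.70 ± 0.14 for VTP-50469 and -1.08 ± 0.15 for selumetinib, all called against DMSO day 3) were -0.12, 0.36 and -0.020 against DMSO day 6, none called. The positive interaction of IRF3 in NOMO1 (0.60 ± 0.21, edgeR adjusted p = 0.0251) was -0.46 with DMSO day 6 as the control, not called. The combination was below VTP-50469 in NOMO1 at day 3, by -0.48 ± 0.15 (edgeR adjusted p = 0.0124), which was -0.40 and not called without combination replicate 3. Of the exon bases of IRF3, 19.4% overlap BCL2L12 on the opposite strand, and these libraries carry no strand.

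STAT2 (chr12:56341597-56360155, minus strand) and IRF9 (chr14:24161053-24166565, plus strand) encode subunits of ISGF3. STAT2 was called higher in both lines with selumetinib alone and, at day 3, in the combination against VTP-50469. In OCI-AML3 at day 3 it had 125, 104 and 99.2 CPM in the combination, 34.7, 58.2 and 41.2 CPM in VTP-50469, 54.7, 86.8 and 84.3 CPM in selumetinib and 37.2, 38.3 and 37.7 CPM in DMSO. The combination and selumetinib lay above DMSO, while VTP-50469 overlapped it. Of the selumetinib libraries, replicate 1, titled day 1, was lower than replicates 2 and 3, titled day 3. The part of time in this was not tested. Selumetinib gave 0.99 ± 0.16 (edgeR adjusted p = 9.54e-05), the combination 1.51 ± 0.16 (edgeR adjusted p = 1.82e-07) and VTP-50469 0.25 ± 0.16 (edgeR adjusted p = 0.424). The combination exceeded VTP-50469 at day 3 by 1.26 ± 0.16 (edgeR adjusted p = 2.35e-06). By day 6 VTP-50469 had also raised STAT2, with 117, 127 and 119 CPM in the combination, 97.9, 98.6 and 102 CPM in VTP-50469 and 36.3, 37.8 and 34.6 CPM in DMSO. The groups did not overlap. The changes were 1.496 ± 0.16 for VTP-50469 and 1.76 ± 0.16 for the combination (edgeR adjusted p = 5.12e-07 and 2.72e-08), and the combination was 0.26 ± 0.15 from VTP-50469, not called (edgeR adjusted p = 0.194). In NOMO1 at day 3 STAT2 had 105, 90.1 and 98.5 CPM in the combination, 40.2, 45.4 and 46.2 CPM in VTP-50469, 80.2, 91.01 and 80.3 CPM in selumetinib and 51.4, 56.9 and 56.9 CPM in DMSO. VTP-50469 was lowest, and the combination was highest but overlapped selumetinib. Selumetinib gave 0.55 ± 0.083 (edgeR adjusted p = 2.21e-06), VTP-50469 -0.36 ± 0.084 (edgeR adjusted p = 0.000757) and the combination against VTP-50469 1.12 ± 0.083 (edgeR adjusted p = 6.61e-11). At day 3 the NOMO1 combination was higher than the sum of both single changes. This interaction, which cannot be told apart from a difference in time on selumetinib, was 0.57 ± 0.12 (edgeR adjusted p = 0.000347). It was 0.50 with DMSO day 6 as the control (edgeR adjusted p = 0.00458), and selumetinib was then 0.62, VTP-50469 -0.29 and the combination 0.83, all called (edgeR adjusted p = 1.47e-06, 0.0104 and 3.49e-09). At day 6 VTP-50469 overlapped DMSO in NOMO1 (-0.016 ± 0.082, not called), and the combination gave 0.29 ± 0.082 (edgeR adjusted p = 0.00351).

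IRF9 had 3 to 136 counts per library, the fewest of the 9 genes, and 48.4% of its exon bases are shared with AL136295.5, an annotated gene on the same strand; how the counting treated such bases is not given in the sources used here. Its values are therefore uncertain. In OCI-AML3 it had 0.900, 6.14 and 4.41 CPM in the combination at day 6, 4.44, 5.97 and 5.196 CPM in VTP-50469 and 1.23, 0.554 and 0.810 CPM in DMSO. VTP-50469 lay above DMSO without overlap, and combination replicate 1 lay within the DMSO range. VTP-50469 gave 2.62 ± 0.53 (edgeR adjusted p = 0.000249) and the combination 2.15 ± 0.53 (edgeR adjusted p = 0.00127). In NOMO1 at day 6 it had 0.913, 1.05 and 1.34 CPM in the combination, 0.824, 0.377 and 0.713 CPM in VTP-50469 and 0.343, 0.113 and 0.349 CPM in DMSO. The combination gave 1.99 ± 0.59 (edgeR adjusted p = 0.0056), and VTP-50469 gave 1.22 ± 0.60, not called. The NOMO1 DMSO day 3 libraries, at 1.42, 1.45 and 1.32 CPM, were above DMSO day 6, so the day 3 combination was -0.86 ± 0.54 against DMSO day 3, not called, and 1.54 against DMSO day 6 (edgeR adjusted p = 0.0372).

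IRF1 (chr5:132481609-132490798, minus strand) encodes a transcription factor that interferon gamma induces through gamma-activated sites (GAS). It rose with VTP-50469 and with the combination at day 6 in both lines, each time by more than 1 on the log2 scale against DMSO day 6. With DMSO alone IRF1 was itself lower at day 6 than at day 3 in NOMO1, by -0.68 ± 0.13 (edgeR adjusted p = 6.88e-05). In OCI-AML3 it had 116, 101 and 119.6 CPM in the combination at day 6, 94.7, 96.9 and 99.02 CPM in VTP-50469 and 42.9, 46.7 and 42.2 CPM in DMSO. In NOMO1 it had 40.7, 37.4 and 39.4 CPM in the combination, 23.5, 27.9 and 27.3 CPM in VTP-50469 and 11.8, 8.96 and 10.1 CPM in DMSO. In each line the combination libraries were highest and the DMSO libraries lowest, with no overlap. VTP-50469 changed IRF1 by 1.18 ± 0.092 in OCI-AML3 (edgeR adjusted p = 3.87e-11) and 1.33 ± 0.13 in NOMO1 (edgeR adjusted p = 1.49e-09). The combination changed it by 1.37 ± 0.092 in OCI-AML3 (edgeR adjusted p = 5.46e-13) and 1.89 ± 0.13 in NOMO1 (edgeR adjusted p = 6.78e-13). The combination was above VTP-50469 in NOMO1 by 0.57 ± 0.12 (edgeR adjusted p = 0.000743). In OCI-AML3 that difference was 0.19 ± 0.089 and not called by edgeR (adjusted p = 0.0925), though DESeq2 called it (adjusted p = 0.0382). At day 3 OCI-AML3 had 77.9, 89.1 and 76.8 CPM in the combination, 61.8, 75.98 and 62.99 CPM in VTP-50469, 39.4, 42.2 and 43.7 CPM in selumetinib and 43.3, 49.4 and 42.5 CPM in DMSO. The combination (0.83 ± 0.091) and VTP-50469 (0.58 ± 0.091) were called higher, and selumetinib overlapped DMSO. The combination was 0.25 ± 0.090 above VTP-50469 (edgeR adjusted p = 0.0263), a call lost without combination replicate 2 (0.17) or VTP-50469 replicate 1 (0.19) or 3 (0.20). In NOMO1 at day 3 the result depended on the control: VTP-50469 gave 0.15 ± 0.13 against DMSO day 3, not called, and 0.83 against DMSO day 6 (edgeR adjusted p = 1.56e-05), and the combination gave 0.19 ± 0.13 and 0.88 (edgeR adjusted p = 2.34e-06). Selumetinib gave -0.40 ± 0.13 against DMSO day 3 (edgeR adjusted p = 0.0102) and 0.28 against DMSO day 6, not called; the first call was also lost without DMSO day 3 replicate 3. Of the exon bases of IRF1, 22.0% overlap genes on the opposite strand.

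The windows of IRF1 at chr5:132490724-132491023 (minus strand) and IRF9 at chr14:24161015-24161314 (plus strand) are shown because both hold the GAS letters TTCNNNGAA, in capitals. Both genes were called above DMSO day 6 in the day 6 combination in both lines, IRF9 on few counts and with overlapping groups in OCI-AML3. STAT2, IFIH1 and TMEM173 were called there as well. The windows of STAT2 and IFIH1 hold no GAS letters, and TMEM173 has no window. Whether the letters bear on these calls was not tested.
IRF1: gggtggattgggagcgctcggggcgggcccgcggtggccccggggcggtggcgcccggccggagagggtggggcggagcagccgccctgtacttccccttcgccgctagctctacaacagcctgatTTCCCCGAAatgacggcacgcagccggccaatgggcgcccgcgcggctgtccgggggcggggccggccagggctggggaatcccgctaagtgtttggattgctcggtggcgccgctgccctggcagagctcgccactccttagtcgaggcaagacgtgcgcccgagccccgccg
IRF9: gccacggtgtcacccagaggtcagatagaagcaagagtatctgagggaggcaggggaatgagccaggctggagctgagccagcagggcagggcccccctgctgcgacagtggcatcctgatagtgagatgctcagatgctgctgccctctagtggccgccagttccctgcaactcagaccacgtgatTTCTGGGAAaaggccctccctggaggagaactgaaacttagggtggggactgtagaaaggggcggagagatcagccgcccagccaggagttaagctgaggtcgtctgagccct
The match begins 124 bases before the start in IRF1 and 63 bases before it in IRF9. Of the 35116 windows, 7.66% hold at least 1 GAS match on either strand. The windows of DDX58, IFIH1 and STAT2 hold none, nor do those of IRF8, which lie inside that gene and not at its 5′ end. The windows cover 6 of the 9 genes; IRF3, IRF7 and TMEM173 are named only.

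IRF8 (chr16:85898803-85922609, plus strand) encodes a transcription factor of monocyte and dendritic cell development, and in OCI-AML3 with VTP-50469 it moved against most of the other genes. It was lower with VTP-50469 than with DMSO in both lines and at both times. In OCI-AML3 at day 6 it had 621, 588 and 603 CPM in the combination, 221, 266 and 234 CPM in VTP-50469 and 1057, 1041 and 1069 CPM in DMSO. The groups did not overlap, and the combination lay between VTP-50469 and DMSO. VTP-50469 gave -2.10 ± 0.17 (edgeR adjusted p = 5.24e-08), the combination -0.79 ± 0.16 against DMSO (edgeR adjusted p = 0.000706) and 1.31 ± 0.17 against VTP-50469 (edgeR adjusted p = 8.46e-06). At day 3 it had 475, 514 and 557 CPM in the combination, 497, 262 and 507 CPM in VTP-50469, 1124, 1094 and 1179.9 CPM in selumetinib and 1033, 1102 and 967 CPM in DMSO. VTP-50469 replicate 2, the library with the highest DDX58, IFIH1 and IRF7 of its group, was also the one with the lowest IRF8. VTP-50469 gave -1.29 ± 0.17 (edgeR adjusted p = 5.8e-05), or -1.04 without replicate 2, and was not called with only the compared groups in the fit (edgeR adjusted p = 0.0512). The combination gave -1.03 ± 0.16 (edgeR adjusted p = 5.86e-05), and selumetinib 0.13 ± 0.16, not called. In NOMO1 IRF8 at day 6 had 131, 148 and 133 CPM in the combination, 157, 169.6 and 166 CPM in VTP-50469 and 259, 291 and 263 CPM in DMSO. Here the combination was lowest and below VTP-50469, without overlap. VTP-50469 gave -0.75 ± 0.067 (edgeR adjusted p = 4.2e-10), the combination -1.02 ± 0.068 (edgeR adjusted p = 5.37e-13) and -0.27 ± 0.068 against VTP-50469 (edgeR adjusted p = 0.00361). At day 3 the combination was instead above VTP-50469, at 139, 145 and 139 CPM against 89.4, 97.2 and 96.1 CPM (0.54 ± 0.068, edgeR adjusted p = 4.61e-07). VTP-50469 at day 3 gave -0.85 ± 0.068 against DMSO day 3 and -1.54 against DMSO day 6, and the combination -0.31 ± 0.068 and -0.997, all called. Selumetinib, at 224, 229 and 230.5 CPM, lay between DMSO day 3 (170.0, 157 and 172 CPM) and DMSO day 6 (259, 291 and 263 CPM), so it was 0.40 ± 0.068 against the first and -0.29 against the second, called in opposite directions (edgeR adjusted p = 1.26e-05 and 0.00138).

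**Figure D2:**
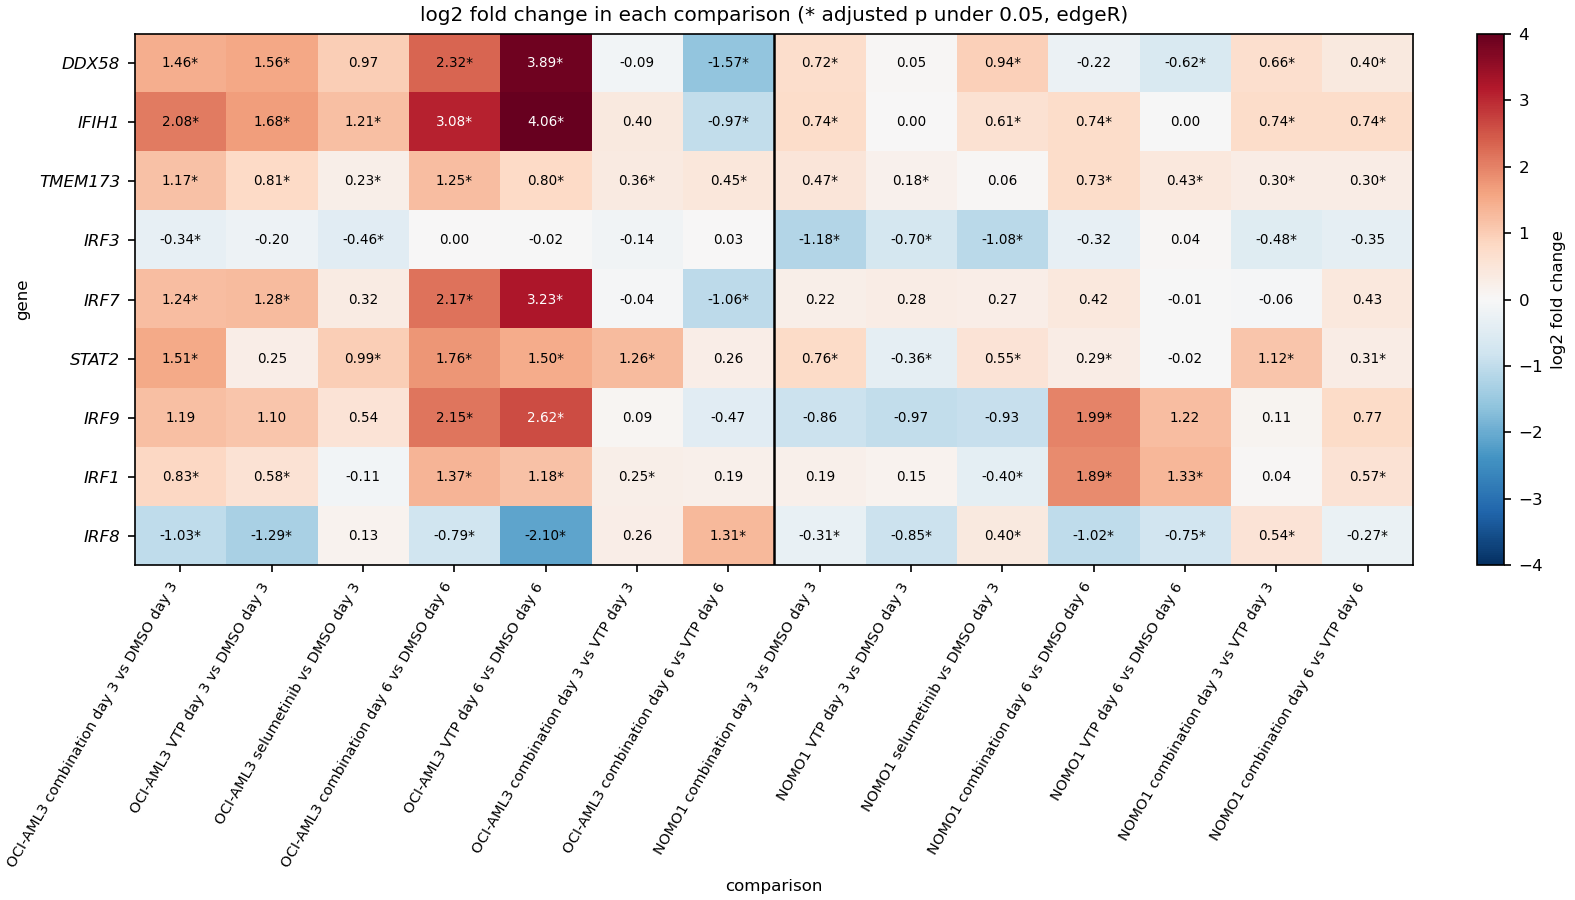
Log2 fold change of the 9 genes (down the page) in 14 comparisons (across), red higher and blue lower in the group named first; an asterisk marks an edgeR adjusted p under 0.05. In OCI-AML3 the VTP-50469 day 6 column holds 3.89 for DDX58 and -2.10 for IRF8, where NOMO1 holds -0.62 and -0.75.

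Without drug the lines differed in most of these genes. At DMSO day 6, NOMO1 against OCI-AML3 gave 3 of 9 genes called higher and 5 lower, against 32.7% and 28.6% of 18707 genes tested. DDX58 (1.17 ± 0.29), IFIH1 (1.61 ± 0.26) and STAT2 (0.55 ± 0.13) were higher in NOMO1. IRF1 (-2.10 ± 0.11), IRF8 (-1.96 ± 0.12), IRF9 (-1.70 ± 0.60), TMEM173 (-1.22 ± 0.066) and IRF3 (-0.88 ± 0.13) were lower in NOMO1, and IRF7 (-0.43 ± 0.30) was not called. The IRF9 call was lost without NOMO1 DMSO day 6 replicate 2 (-1.30) or OCI-AML3 DMSO day 6 replicate 1 (-1.36). Per kilobase of exon that no other gene shares, IRF8 had the highest level of the 9 in DMSO day 6 of both lines, at 52.5 ± 3.39 CPM per kilobase in NOMO1 and 205 ± 2.74 in OCI-AML3 (SD, n = 3). TMEM173 followed at 20.6 ± 1.47 and 47.8 ± 1.46, then IRF3 at 10.3 ± 2.31 and 18.9 ± 0.666, and IRF9 was lowest at 0.137 ± 0.0687 and 0.442 ± 0.174 CPM per kilobase. In NOMO1 the neighbours IRF3 and STAT2 (8.68 ± 0.466), and IFIH1 (3.76 ± 0.384) and IRF7 (3.44 ± 0.178), lay within their spread. In OCI-AML3 at day 6 of VTP-50469 the order was TMEM173, IRF8, IRF7, DDX58, IFIH1, IRF3, STAT2, IRF1 and IRF9, from 81.1 ± 2.51 to 2.66 ± 0.393 CPM per kilobase, with IRF8 (46.6 ± 4.49) and IRF7 (42.4 ± 2.901) within their spread. STAT2 and IRF1 also lay within it, at 16.3 ± 0.388 and 15.9 ± 0.354.

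The difference between the lines in their drug response was tested in 1 fit of all libraries, as the NOMO1 change minus the OCI-AML3 change. For VTP-50469 at day 6, 1 of 9 genes was called higher and 5 lower (of all genes, 16.6% and 16.8%). The differences were -4.45 ± 0.41 for DDX58 (edgeR adjusted p = 3.22e-10), -3.99 ± 0.34 for IFIH1 (edgeR adjusted p = 3.08e-11), -3.17 ± 0.42 for IRF7 (edgeR adjusted p = 3.68e-07) and -1.44 ± 0.18 for STAT2 (edgeR adjusted p = 1.11e-08). In these 4 genes, as in TMEM173 and IRF8 below, the difference between the lines was called, beyond the spread between replicates. TMEM173 differed by -0.30 ± 0.092 (edgeR adjusted p = 0.00861), and IRF8, which fell further in OCI-AML3, by 1.41 ± 0.17 (edgeR adjusted p = 2.53e-08). IRF1 differed by 0.22 ± 0.15, which was not called, and neither were IRF3 (0.13 ± 0.18) and IRF9 (-1.33 ± 0.82). For the combination at day 6, 1 was called higher and 5 lower (all genes 18.6% and 16.3%). DDX58 differed by -2.48 ± 0.40, IFIH1 by -2.29 ± 0.34, IRF7 by -1.69 ± 0.42 and STAT2 by -1.41 ± 0.18. TMEM173 differed by -0.46 ± 0.092, and IRF1, which rose further in NOMO1, by 0.58 ± 0.15 (edgeR adjusted p = 0.00144). The line difference of IRF8 under the combination was -0.17 ± 0.17, not called. For selumetinib, 0 of 9 were called higher and 1 lower (all genes 20.1% and 13.6%): IRF3, by -0.57 ± 0.18 (edgeR adjusted p = 0.0104), which was 0.45 and not called with DMSO day 6 as the control in both lines, where IFIH1 was called in its place (-1.28, edgeR adjusted p = 0.014, all genes 9.61% in either direction). The tests share their DMSO groups between drugs.

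**Figure D3:**
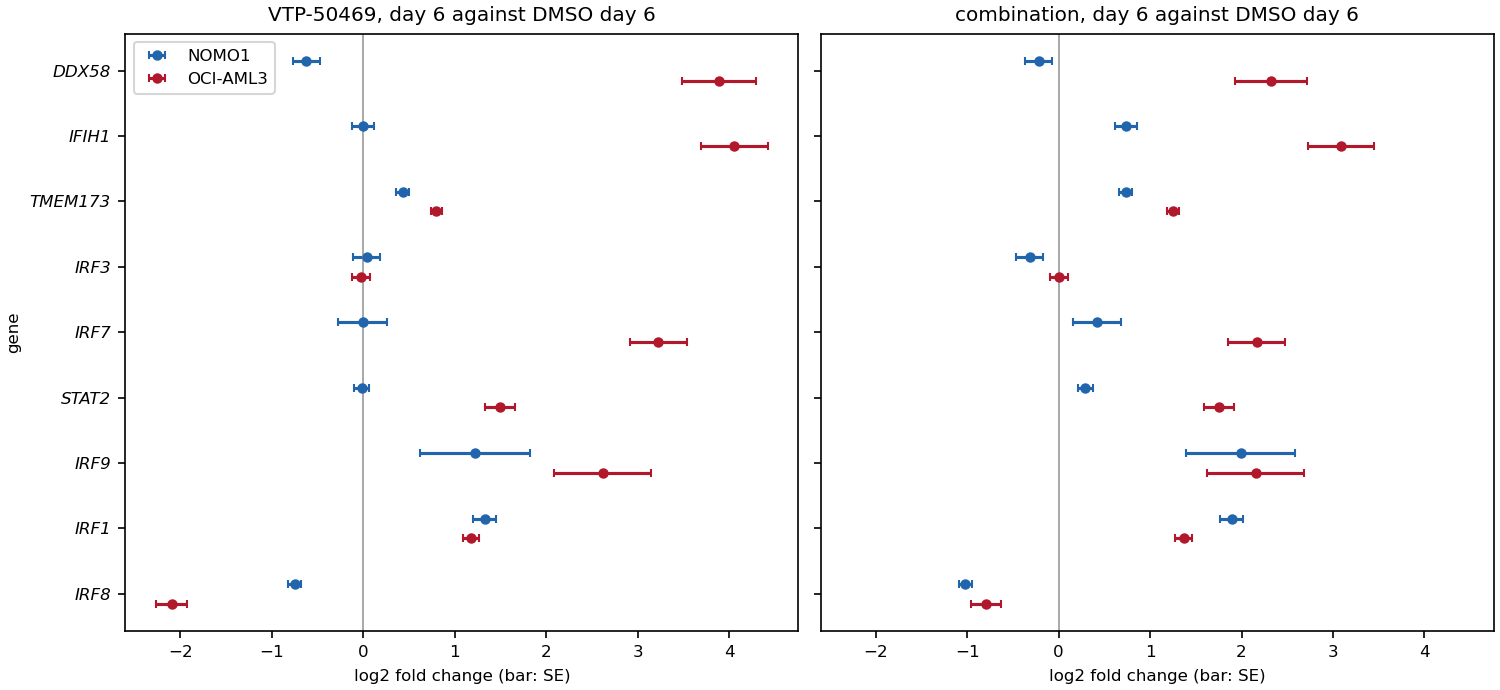
Log2 fold change (point) and SE (bar) of the 9 genes at day 6 of VTP-50469 (left) and of the combination (right) against DMSO day 6, NOMO1 in blue and OCI-AML3 in red, n = 3 libraries per group. DDX58, IFIH1, IRF7 and STAT2 lie further right in OCI-AML3, and IRF1 lies above 1 in both lines.

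The interferon genes themselves had few or no counts. Of 21 genes for interferons, none had enough counts to be tested, 13 had 0 counts in all 42 libraries, and the highest count in any library was 7, for IFNB1 in OCI-AML3 VTP-50469 day 6. Genes downstream of interferon were higher in OCI-AML3 with VTP-50469. Of 15 listed interferon effector genes, 15 of 15 tested were called higher at day 6 of VTP-50469 against DMSO in OCI-AML3 and 0 lower, with a median log2 fold change of 7.23. Over all genes 18.8% were called higher and 16% lower in this comparison, against which the counts of the lists below are to be read. MX2, an antiviral GTPase, changed by 1.78 ± 0.10, BST2, which tethers budding virus, by 1.501 ± 0.071, and RSAD2, which makes an antiviral nucleotide, by 3.85 ± 0.29. These 3 were picked by smallest adjusted p, and all lie below the median of the list. Of the other nucleic acid sensors, 10 of 12 were called higher and 1 lower (median 4.85), among them AIM2, a DNA sensor of the inflammasome (5.06 ± 0.53), DHX58, the RIG-I-like receptor LGP2 (4.09 ± 0.40), and EIF2AK2, the RNA-activated kinase PKR (3.15 ± 0.24). TLR3, an endosomal receptor of double-stranded RNA, is among those called higher. It had 0 counts in every DMSO day 6 library and was at least 186-fold higher with VTP-50469, counting 3 reads over the DMSO group as its floor, and the median is 4.85 with that bound in place of its fitted value. TLR7, TLR9 and ZBP1 had too few counts to be tested. Of the adaptors, kinases and ubiquitin ligases that link sensors to IRF3 and IRF7, 6 of 12 were called higher and 2 lower, with MYD88, the adaptor of Toll-like receptors, at 1.53 ± 0.11, TRIM25, a ubiquitin ligase of RIG-I, at 0.62 ± 0.076 and TRAF3, a ubiquitin ligase, at -1.20 ± 0.15. Of the interferon receptors and JAK kinases, 2 of 8 were called higher and 0 lower: JAK2 (0.81 ± 0.14) and the receptor subunit IFNAR1 (0.52 ± 0.079). Of the negative regulators 4 of 12 were called higher and 3 lower, and of the other IRF family members 1 of 2 was called higher, IRF2 (1.11 ± 0.12). In lists as short as those of the receptors and kinases and of the negative regulators, the counts lie within a few genes of the shares over all genes.

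In the OCI-AML3 combination at day 6 most effector genes and other sensors were called below VTP-50469 alone, as DDX58, IFIH1 and IRF7 were (all genes 16.7% higher and 24.6% lower). Against VTP-50469, 14 of 15 effector genes were called lower and 0 higher (median -1.62, all genes -0.040), and 8 of 12 other sensors were called lower and 0 higher (median -1.29). EIF2AK2 was lower by -1.04 ± 0.22 and MX2 by -1.04 ± 0.10. The adaptors and kinases were called in both directions, 5 higher and 3 lower of 12, and so were the receptors and JAK kinases, 3 higher and 1 lower of 8. Against DMSO the effector genes were still called higher in the combination, 15 of 15. At day 3, 8 of 15 effector genes were called higher than in DMSO in the combination (all genes 22.3%), 13 in VTP-50469 (all genes 6.49%), a group that holds the library that stood apart, and 1 in selumetinib (all genes 11.7%), where 1 was lower. The other sensors gave 9, 10 and 2 of 12 higher. Against VTP-50469 at day 3 the combination gave 1 effector gene higher and 8 lower of 15 (all genes 18.2% and 24%).

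In NOMO1 few effector genes were called at day 6 of VTP-50469, with 1 of 13 called higher and 1 lower (median -0.11, all genes -0.010). Over all genes 23.7% were called higher and 25.1% lower. IFI6 changed by 1.11 ± 0.13 and IFIT1 by -1.83 ± 0.76. Of the receptors and JAK kinases, 8 of 9 were called higher and 0 lower, among them IFNGR1 (0.90 ± 0.094), IFNGR2 (0.86 ± 0.10) and JAK1 (0.84 ± 0.082). Of the other sensors 7 of 12 were called higher and 4 lower. Those of smallest adjusted p were TLR7 and TLR8, receptors of single-stranded RNA in endosomes, at 4.26 ± 0.34 and 3.06 ± 0.18, and OAS3, which makes the messenger that activates RNase L, at 3.51 ± 0.55. The adaptors and kinases gave 5 higher and 2 lower of 12, with MYD88 at 1.91 ± 0.14, TRAF3 at 0.95 ± 0.10 and TANK at 0.79 ± 0.10. The negative regulators gave 5 higher and 2 lower of 12, the same counts as the adaptors. In lists this short, such counts lie within a few genes of the shares over all genes. Of the other IRF family members 3 were called higher and 0 lower of 3, with IRF2 at 0.68 ± 0.090, IRF5 at 0.74 ± 0.10 and IRF4 at 2.66 ± 0.84. The combination at day 6 against VTP-50469 gave 4 effector genes higher and 1 lower of 13 (all genes 12.4% and 15.2%).

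**Figure D4:**
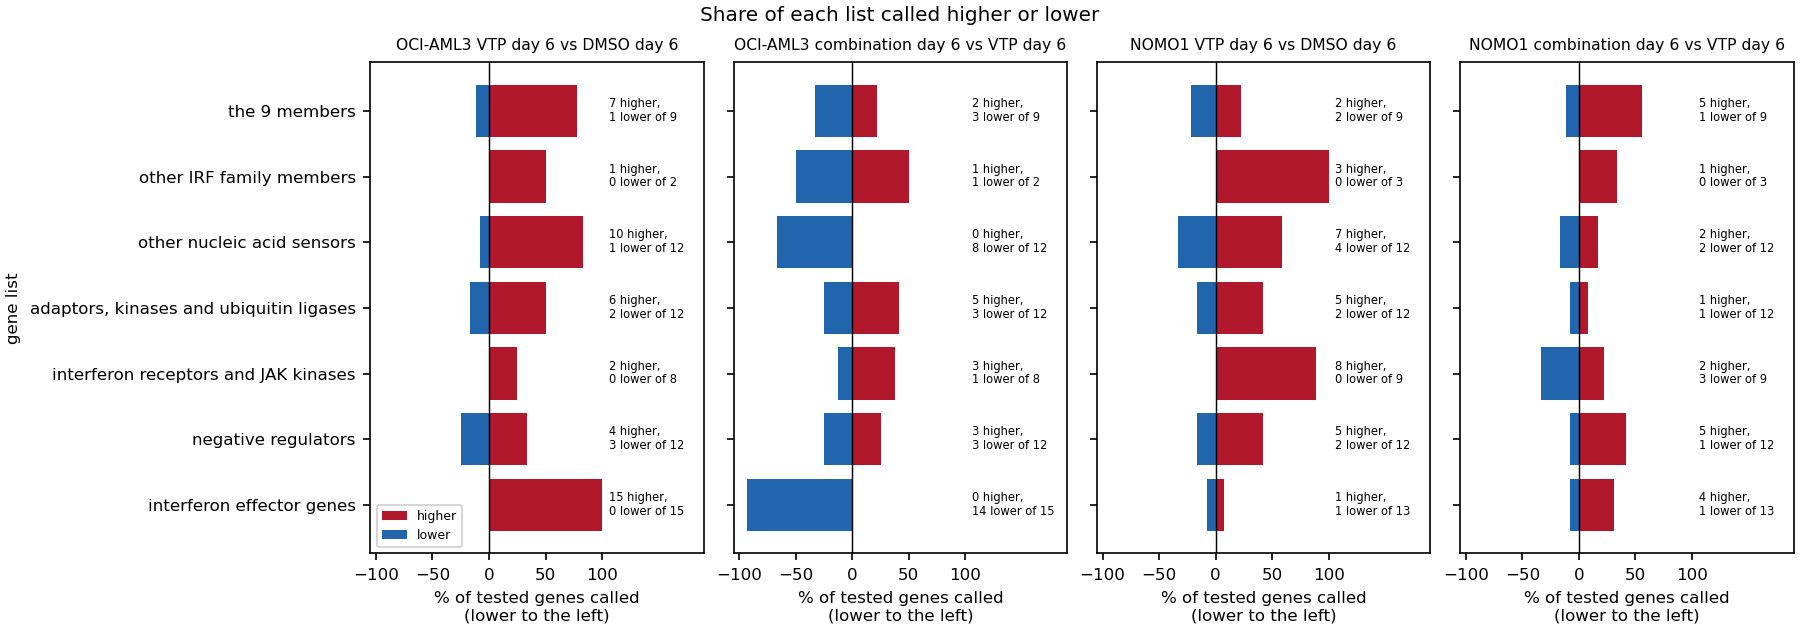
Percent of the tested genes of each list called higher (red, right) or lower (blue, left) by edgeR at an adjusted p under 0.05, in 4 comparisons at day 6. In OCI-AML3 15 of 15 effector genes were higher with VTP-50469 and 14 were lower in the combination than in VTP-50469.

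The genes whose pattern was most like each of the 9 were sought over the 14 group means of log2(CPM + 1), centred within each line, among 10984 genes. These are descriptions over means that share drugs, libraries and depth. For IRF7 they were IFIT2 (r = 0.99) and IFIT3 (r = 0.99), for DDX58 IFI35 (0.95) and HERC6 (0.95), and for IFIH1 SAMD9L (0.98) and HERC6 (0.97). All 5 of these names are known as interferon-induced genes. STAT2 was most like CAPN1 (0.95) and ACSF2 (0.95), IRF9 like MLLT3 (0.96) and SOCS1 (0.95), and IRF1 like SLC48A1 (0.95) and TNFAIP2 (0.94). TMEM173 was most like OMA1 (0.94) and WAS (0.92), IRF3 like TPM2 (0.94) and CHTOP (0.93), and IRF8 like PLAC8 (0.92) and HSF1 (0.88). Among the 9 themselves r was 0.92 between DDX58 and IFIH1, 0.95 between DDX58 and IRF7, 0.96 between IFIH1 and IRF7, and -0.64 between DDX58 and IRF8.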

How the data were processed

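Polyadenylated RNA was sequenced as unstranded paired-end libraries, per the labels' protocols. The submitters' processing notes name FastQC 0.11.9, MultiQC 1.14, STAR 2.11a, featureCounts of Subread 2.0.6, DESeq2 1.44.0 and build hg38. The file the authors deposited is a table of raw counts, whole numbers without scaling; GENCODE 30 is named in its header. Of its columns, 3 match no labelled library and repeat the OCI-AML3 selumetinib columns in 58870 of 58870 rows; they were not used. A gene with missing values in its row was dropped. The compound's number is spelled in 2 ways, and that of the series description is used. No pair of replicates agreed within sampling noise (chi-square per gene 3.67 to 73.0).

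Each line was fitted alone (7 groups, 21 libraries) in edgeR 4.0.16 under R 4.3.3 on the raw counts, with filterByExpr, TMM scaling, robust quasi-likelihood and Benjamini-Hochberg adjustment at 0.05. The lines were compared in a joint fit of 42 libraries and 18707 genes. SE is the log2 fold change divided by the square root of F. The test was also run on simulated counts that held no outlying library, so that run is no check of results that rest on such a library. Exon overlaps and positions come from GENCODE 29, and promoter windows from RefSeq on GRCh38.p14. Like genes are the 2 of highest Pearson r among named genes with at least 5 CPM in 1 group. All 9 genes were tested in every comparison, and values of single genes are given for some of the comparisons. Up to 3 called genes of smallest adjusted p at VTP-50469 day 6 are given per pathway list. CGAS is listed under its present symbol. Some genes of these pathways are not reported here. The 9 genes and the lists were chosen with earlier results of these data known. Replicate numbers did not pair libraries: correlations of same-numbered libraries, group means removed, ran from -0.15 to 0.11 in both lines. Other settings tried were a replicate block, DMSO day 6 as the control, fits of the compared groups only, leaving out each library, no filter, a 1 CPM filter (3 libraries), size factors by relative log expression, and DESeq2 1.42.0.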

Additional observations from a re-analysis of the deposited data

Results flagged for a closer look

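A test of the difference itself set 13 results apart between the lines, each the NOMO1 change minus the OCI-AML3 change on the log2 scale. For VTP-50469 at day 6 these were DDX58 (-4.45), IFIH1 (-3.99), IRF7 (-3.17), STAT2 (-1.44), TMEM173 (-0.30) and IRF8 (1.41). For the combination at day 6 they were DDX58 (-2.48), IFIH1 (-2.29), IRF7 (-1.69), STAT2 (-1.41), TMEM173 (-0.46) and IRF1 (0.58). For selumetinib it was IRF3 (-0.57), whose difference was 0.45 and no longer called with DMSO day 6 as the control in both lines, an alternative chosen after seeing the data. The 12 differences at day 6 do not involve the DMSO day 3 libraries. Groups of 3 libraries are too small for a test of single outlying libraries, so the high values of OCI-AML3 VTP-50469 day 3 replicate 2 are given in the results as they stand.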

How the results depend on the processing

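Of the alternatives run for single genes in single comparisons, those that turned a direction concern NOMO1 at day 3, where DMSO day 6 as the control gave IFIH1 -0.46 and IRF3 0.36 for VTP-50469, IRF1 0.28 and IRF8 -0.29 for selumetinib, IRF9 1.54 for the combination, IRF3 -0.46 for the interaction and IRF3 0.45 for the line difference under selumetinib, and the combination against VTP-50469 at day 3, where leaving out the VTP-50469 library that stood apart gave DDX58 0.87 and IRF7 0.67 in OCI-AML3 and IRF7 0.54 in NOMO1. Over all single libraries left out, these 3 values ran from -0.43 to 0.87, -0.30 to 0.67 and -0.30 to 0.54. With DMSO day 6 as the control, all genes called in NOMO1 were 4499 for VTP-50469 at day 3 (8680 with DMSO day 3), 5328 for selumetinib (8957) and 2298 for the interaction (6134), and 1797 (6301) for the line difference under selumetinib. With only the compared groups in the fit, 2 of the 9 genes were called in OCI-AML3 for VTP-50469 day 3 (6) and for VTP-50469 day 6 against day 3 (6), and 3 for the line difference under selumetinib (1). DESeq2 called 1 of 9 for the OCI-AML3 interaction (0), 4 for the NOMO1 interaction (2), 2 for the selumetinib line difference (1) and 1 gene between the OCI-AML3 DMSO days (0). Relative log expression size factors gave 4 for the NOMO1 interaction and 2 for the selumetinib line difference, a filter of 1 CPM gave 4 for the NOMO1 interaction, and no filter gave 3 for that line difference and 1 gene between the OCI-AML3 DMSO days. The replicate block moved no count beyond 1.5 times: it lost the calls of TMEM173 in NOMO1 VTP-50469 day 3 (0.18) and DDX58 in the NOMO1 day 6 combination against VTP-50469 (0.40) and added IRF9 in the OCI-AML3 day 3 combination (1.29). Leaving out 1 library gave, of the 9 genes, 4 to 6 called for OCI-AML3 VTP-50469 day 3, 2 to 4 for selumetinib, 2 to 6 for the combination against VTP-50469 at day 3, 0 to 1 for the interaction, and in NOMO1 1 to 4 for the interaction, with 0 to 2 for the selumetinib line difference; all genes called were 980 to 1892 for OCI-AML3 VTP-50469 day 3, 959 to 1805 for its interaction, 1679 to 3928 for VTP-50469 day 6 against day 3 and 0 to 1 between its DMSO days. In NOMO1 without VTP-50469 day 3 replicate 1, DDX58 was called for the interaction (-0.46) and for VTP-50469 day 6 against day 3 (-0.47). Depth limits IRF9 most, with 3 to 136 counts per library.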

Other observations

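USP18, which removes ISG15 from proteins and blocks the type I interferon receptor, had 12.7 ± 5.49 CPM in the OCI-AML3 combination at day 6, 81.7 ± 5.49 CPM in VTP-50469 and 3.54 ± 0.770 CPM in DMSO, and 1.441 ± 0.230 CPM, 0.803 ± 0.595 CPM and 2.46 ± 0.487 CPM in the same NOMO1 groups (SD, n = 3). VTP-50469 changed USP18 by 4.56 ± 0.54 in OCI-AML3 (edgeR adjusted p = 7.95e-06) and -1.63 ± 0.44 in NOMO1 (edgeR adjusted p = 0.00303), and the line difference was -6.11 ± 0.66 (edgeR adjusted p = 3.73e-09). USP18 was chosen after its values were seen. SOCS1, an inhibitor of JAK kinases, changed by 4.59 ± 0.56 in OCI-AML3 (edgeR adjusted p = 2.93e-07) and by 0.51 ± 0.36 in NOMO1, not called.

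Of the endosomal RNA receptors, TLR8 had 227 ± 28.7 CPM in the NOMO1 combination at day 6, 205 ± 9.76 CPM in VTP-50469 and 24.1 ± 0.626 CPM in DMSO, and TLR7 had 24.1 ± 3.85 CPM, 14.5 ± 2.19 CPM and 0.709 ± 0.396 CPM. In OCI-AML3 TLR8 was at 0.995 ± 0.304 CPM, 0.252 ± 0.102 CPM and 0.187 ± 0.207 CPM in the same groups. The VTP-50469 line difference of TLR8 was 2.69 ± 0.98 (edgeR adjusted p = 0.0312).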
